A study of Homo sapiens with 11 samples.

Results

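Transcript levels were compared between hTert-HME1 cells that carried a BRCA2 siRNA and cells that carried a control siRNA, both grown in medium lacking EGF. This comparison rests on 5 of the 11 libraries of the study, 3 labelled BRCA2 siRNA (replicates A, B and C) and 2 labelled control siRNA (A and C). Of 40460 genes in the deposited table, 17950 reached a linear value of 10 in at least 2 of the 11 libraries, and these were compared. hTert-HME1 is a line of human mammary epithelial cells made immortal with telomerase. All cells were grown in Mammary Epithelial Growth Medium, were transfected with RNAiMAX and were at passage 6. The labels name 1 siRNA for each arm, BRCA2-1 and control-2, so an effect of that siRNA on other transcripts and an effect on BRCA2 cannot be told apart. The other 6 libraries, 3 of either siRNA, came from complete medium with EGF and served for the shared estimate of spread and for the same siRNA comparison in the other medium. The study crosses both factors, so the comparison asks how the siRNA changes expression once EGF is absent.

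EGF binds the receptor EGFR, and the RAS, MAPK and PI3K pathways behind it drive growth and division of cultured mammary epithelial cells. When this input is missing, FOXO transcription factors enter the nucleus and switch on genes of quiescence, and basal epithelial cells tend to express genes of squamous differentiation. BRCA2 acts in the repair of DNA breaks and stalled forks by homologous recombination.

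The targeted transcript stood higher, and not lower, under the BRCA2 siRNA label. Without EGF, BRCA2 (ENSG00000139618) had log2 values of 12.48, 12.27 and 12.11 in BRCA2 siRNA libraries A, B and C, and of 11.44 and 11.65 in control libraries A and C. Every library labelled BRCA2 siRNA thus lay above both controls. The difference was 0.74 ± 0.13 on the log2 scale (moderated SE, n = 3 and 2), or 1.67-fold higher, with an adjusted p of 0.00397 in limma. It lost the call without control library A (0.64, adjusted p = 0.0655). With EGF the values were 12.43, 12.37 and 12.40 under BRCA2 siRNA and 12.45, 12.13 and 12.48 under control siRNA, a difference of 0.05. Because the transcript goes against the label, groups are called by their labels here, and every direction stated is that of the libraries labelled BRCA2 siRNA relative to those labelled control siRNA. A transcript level says nothing of the protein, which was not measured.

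In the libraries labelled BRCA2 siRNA 34 of 38 mitosis genes and 17 of 36 genes of the ATF4 amino acid response were called higher. Called lower were 13 of 24 FOXO targets, 11 of 24 basal epithelial markers and 11 of 33 interferon-stimulated genes. The FOXO and interferon counts each leave out 1 gene that was tested only through the controls without EGF. Among the 17950 genes, 3688 (20.5%) passed an adjusted p of 0.05, of which 2007 (11.2% of the genes tested) were higher and 1681 (9.36%) were lower. Changes of at least 2-fold were found for 550 of them, 114 higher and 436 lower. The median difference over all genes was 0.01. The share of a gene list is given below to be read against those of all genes, 11.2% and 9.36%. For 501 of the 17950 genes the testing level was reached only through the group where the gene is high, and 153 of these were called. Entry by this route favours a difference, so those named in the gene lists below are given by their values alone. The libraries of both groups did not overlap in any of the 3688 genes, nor in 11173 of all 17950. The count depended on single libraries: it was 624 without control library A, 1182 without control C, 1662 without BRCA2 siRNA A and 2047 without BRCA2 siRNA B. Without either control the remaining one is assumed to vary like the other groups.

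The libraries labelled BRCA2 siRNA also differed among themselves. On the first principal component of the 5 libraries, which held 74.2% of the variance, the controls lay at -37.13 (A) and -33.52 (C), and the BRCA2 siRNA libraries at 36.10 (A), 24.24 (B) and 10.32 (C). Library C was the one nearest the controls in 2870 of the 3688 genes, library B in 580 and library A in 238. Within replicate A the median absolute difference of these genes was 0.71 and within replicate C it was 0.44, with the larger one in A for 3182 genes (86.3%). All 3688 differences kept their sign in every setting in which they were tested. Since the libraries of both groups did not overlap in these genes, leaving libraries out could not change a sign. This includes the libraries of replicates B and C alone. With those alone limma called 0 genes, and 2070 had an unadjusted p under 0.05.

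The genes that rose most included enzymes of amino acid metabolism. CHAC1 (ENSG00000128965), a glutathione-degrading enzyme induced by amino acid shortage, had log2 values of 9.45, 9.18 and 8.31 in BRCA2 siRNA libraries A, B and C and of 6.37 and 6.65 in controls A and C. It rose 5.55-fold (2.47 ± 0.49, adjusted p = 0.0069), and without control A the adjusted p was 0.0734. BCAT1 (ENSG00000060982), which transfers the amino group of branched-chain amino acids, had 10.70, 10.19 and 9.72 against 8.27 and 8.12. In both genes library C was the lowest of the 3 and still well above the controls. BCAT1 rose 4.02-fold (2.01 ± 0.26, adjusted p = 0.00151).

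PSAT1, an enzyme of serine synthesis, rose by 1.70 ± 0.39 and asparagine synthetase, ASNS, by 1.69 ± 0.48. ASNS stood at 12.65, 12.01 and 11.34 against 10.30 and 10.33. With EGF it stood at 12.71, 13.72 and 12.30 under BRCA2 siRNA and at 13.40, 13.79 and 12.38 under control siRNA. These values enter the shared estimate of spread as well. The spread among its BRCA2 siRNA libraries was wide, and its adjusted p of 0.0291 became 0.151 without control A, 0.124 without control C, 0.111 without BRCA2 siRNA A and 0.0731 without BRCA2 siRNA B. CBS, which makes cystathionine from homocysteine and serine, rose by 1.63 ± 0.51 (adjusted p = 0.0417, and 0.0889 to 0.181 when either control, BRCA2 siRNA A or BRCA2 siRNA B was left out). PSAT1 lost its call without control A (adjusted p = 0.0923) or control C (0.0738). EIF4EBP1, which holds back cap-dependent translation, rose by 1.57 ± 0.30 (adjusted p = 0.00564, and 0.0668 without control A).

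For other large rises no call was lost when a library was left out. HAS2 (ENSG00000170961), which makes the matrix polymer hyaluronan, had 11.92, 12.12 and 11.88 against 10.48 and 10.34, and rose by 1.56 ± 0.14 (adjusted p = 0.00098). ANGPTL4, a secreted inhibitor of lipoprotein lipase, had 9.70, 9.88 and 9.71 against 7.93 and 8.13, and rose by 1.73 ± 0.19. For HAS2 and ANGPTL4 the 3 BRCA2 siRNA libraries lay close together. The phosphodiesterase PDE2A rose by 1.63 ± 0.18, the membrane ubiquitin ligase MARCHF4 by 1.71 ± 0.18, and KIAA1549L by 1.71 ± 0.27. RPSAP52, a transcribed pseudogene that shares sequence with a ribosomal protein gene, rose by 1.53 ± 0.18, and its reads may be split with other copies. These 6 genes and BCAT1 passed the test with each of the 5 libraries left out in turn.

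Among genes above the median level, the largest fall was that of GPNMB (ENSG00000136235), which spans the membrane of lysosomes and pigment granules. Its values were 7.62, 8.32 and 9.20 in BRCA2 siRNA libraries A, B and C and 11.49 and 11.68 in controls A and C. It fell 9.23-fold (-3.21 ± 0.36, adjusted p = 0.00108). EPHB6 (ENSG00000106123), an Eph receptor without kinase activity, had 5.37, 5.45 and 6.65 against 8.52 and 9.10. In both genes all 3 BRCA2 siRNA libraries lay below both controls, and library C was the highest of the 3. EPHB6 changed by -2.98 ± 0.39 (adjusted p = 0.00162).

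CYP1A1, the classic monooxygenase target of the aryl hydrocarbon receptor, changed by -2.67 ± 0.35, with 6.00, 6.59 and 7.61 against 9.43 and 9.38. The serpin SERPINB13 changed by -2.65, MAL2, a protein of apical transport, by -2.43, proline dehydrogenase, PRODH, by -2.37, and carbonic anhydrase 2, CA2, by -2.34. TRIM29, a basal epithelial protein, changed by -2.33, the immediate-early factor FOSB by -2.21 and the liprin PPFIBP2 by -2.20. HPGD, which degrades prostaglandins, changed by -2.24 (adjusted p = 0.00588, and 0.0664 without control A). The tight junction protein CLDN1 fell by 2.22 ± 0.71 (adjusted p = 0.0463), and its adjusted p rose to between 0.059 and 0.191 with any of the 5 libraries left out. The other 10 of these 12 falls passed with each of the 5 libraries left out in turn.

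**Figure D1:**
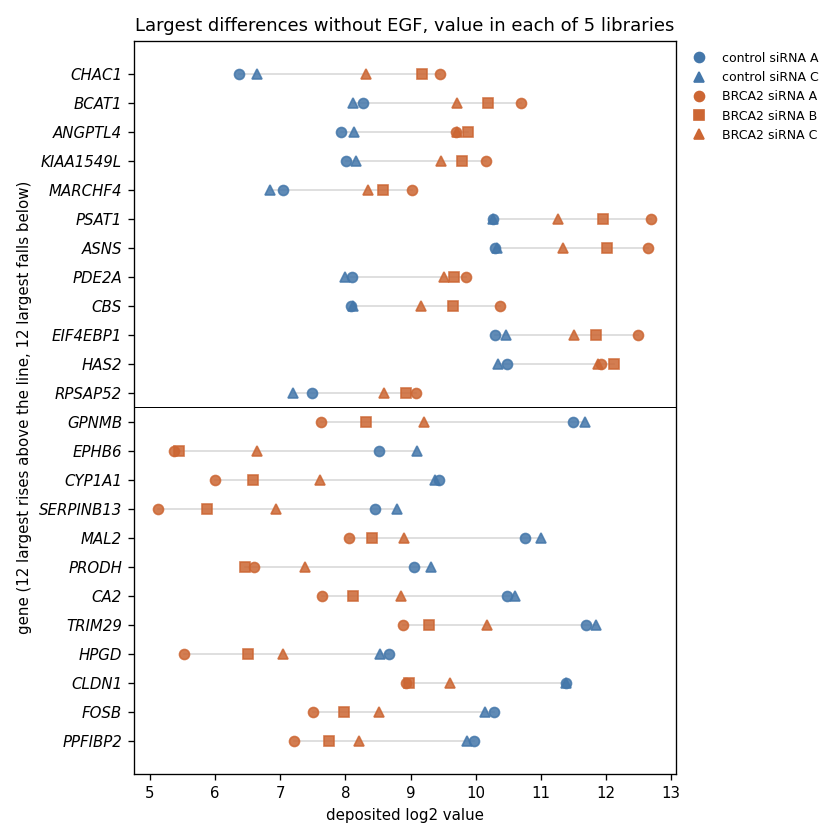
Deposited log2 value (horizontal axis) of the 12 genes with the largest rise and the 12 with the largest fall, with 1 symbol for each of the 5 libraries without EGF. In all 24 genes the 2 control symbols lie apart from the 3 BRCA2 siRNA symbols, which was a condition for choosing these genes. In CHAC1 BRCA2 siRNA library C (8.31) lies nearer the controls (6.37 and 6.65) than library A (9.45) does.

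Genes of mitosis rose almost throughout. Of 38 mitosis and G2/M genes 34 (89.5%) rose and none fell, with a median of 0.66, beside 11.2% higher and a median of 0.01 over all genes tested. CDC20 (ENSG00000117399), which activates the anaphase-promoting complex, had 12.53, 12.29 and 12.02 against 11.25 and 11.37 and rose 1.96-fold (0.97 ± 0.13, adjusted p = 0.00193). The ubiquitin-conjugating enzyme UBE2C rose by 0.80 ± 0.10, the mitotic kinase PLK1 by 0.81 ± 0.11 and the cyclin CCNB2 by 0.69 ± 0.09. The proliferation marker MKI67 had a difference of 0.73 and did not pass. All 38 members had a difference above 0, from 0.34 to 0.97. The count was 10 without control A and 25 without control C, with medians of 0.57 and 0.72, while CDC20, UBE2C, PLK1 and CCNB2 passed in each case.

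Genes of DNA replication lay higher throughout, and some passed the test. All 40 members had a difference above 0, and 13 (32.5%) were called higher and none lower, with a median of 0.70. CDC6, which loads the replicative helicase, had 12.44, 12.21 and 12.01 against 11.13 and 11.26 and rose by 1.03 ± 0.14 (adjusted p = 0.00212). The helicase cofactor CDC45 rose by 1.02 ± 0.15, the ubiquitin ligase subunit DTL by 0.80 and the origin protein ORC6 by 0.85. The clamp PCNA (0.82), the helicase subunit MCM2 (0.59) and the ribonucleotide reductase subunit RRM2 (1.08) did not pass. PCNA had 12.93, 12.98 and 12.84 against 11.91 and 12.28. With EGF its libraries of replicate B (11.51 and 11.75) and C (13.17 and 13.19) lay far apart, which enters the shared estimate of spread. The 2 control libraries stood apart in this list, with medians of -0.17 (A) and 0.17 (C) about their mean, against 0.73, 0.77 and 0.62 for BRCA2 siRNA A, B and C. The count was 2 without control A, when DTL (adjusted p = 0.0809) and ORC6 (0.0807) lost their calls, and 10 without control C. With the replicate letters as a block in the fit, 37 of the 40 replication genes were called higher, beside 2387 of all 17950 genes. Of 14 replication-dependent histones tested, 9 (64.3%) rose and none fell, with a median of 0.79, and 14 rose with the block. The linker histones H1-2 and H1-4 rose by 0.54 and 0.78, and the core histones H2AC13 and H2BC13 by 0.89 and 0.79, but 0 histones passed without control A (adjusted p = 0.0669 to 0.0885 for these 4) and 5 without BRCA2 siRNA A. Histone genes are near-identical copies, so reads may be split among them.

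Some partners of BRCA2 in homologous recombination and the Fanconi anaemia pathway rose. Of 40 members 17 (42.5%) rose, BRCA2 included, and 1 (2.5%) fell, with a median of 0.39. The central Fanconi protein FANCD2 rose by 0.58 ± 0.11, the meiotic recombination factor MND1 by 0.64, the end-resection factor RBBP8 by 0.50, the helicase BLM by 0.98 and BRCA1 by 0.65. The damage kinase ATM changed by -0.30. The mediators RAD52 (-0.21) and BARD1 (0.24), the partner of BRCA1, did not pass. With 1 library left out the count higher was 0 (control A), 6 (control C), 7 (BRCA2 siRNA A) or 8 (BRCA2 siRNA B), and that of falls was 0 in these 4 cases. FANCD2, MND1 and RBBP8 had adjusted p values of 0.0789, 0.0849 and 0.0957 without control A.

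Targets of p53 were called at about the shares of all genes. Of 29 members 3 (10.3%) rose and 4 (13.8%) fell, with a median of 0.06, which became -0.06 under quantile normalization. Without control A 0 rose and 1 fell. The nuclease AEN rose by 0.81 and the metabolic regulator TIGAR by 0.70, both without a call once control A was left out (adjusted p = 0.0658 and 0.0668). The antiproliferative gene BTG2 changed by -0.82 ± 0.13 (adjusted p = 0.00253). The standard p53 targets CDKN1A (0.09) and MDM2 (0.06) did not pass. Of 19 G1 cyclins and CDK inhibitors 4 (21.1%) rose and 2 (10.5%) fell, with a median of 0.15. Cyclin D1, CCND1, rose by 0.70, the transcription factors E2F3 and E2F4 by 0.46 and 0.55, and the CDK inhibitor CDKN2B changed by -1.11. Calls of E2F3, E2F4 and CDKN2B were lost without control A or control C (adjusted p = 0.0543 to 0.0736), and 0 members rose or fell without either.

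Some feedback targets of the MAPK pathway rose while some immediate-early genes fell. SPRY4 (ENSG00000187678), an inhibitor that MAPK signalling induces against itself, had 10.28, 10.14 and 10.08 against 8.74 and 8.64 and rose 2.79-fold (1.48 ± 0.15, adjusted p = 0.00098). The ETS factors ETV4 and ETV5 rose by 1.38 ± 0.20 and 1.38 ± 0.21, and the AP-1 subunit FOSL1 by 1.00. FOSB had 7.51, 7.98 and 8.52 against 10.28 and 10.15. FOS and EGR2 fell with it, at -1.73 and -1.16, and the receptor EPHA4 at -1.98. The list as a whole had 7 of 31 members higher (22.6%) and 4 lower (12.9%), with a median of 0.25 (0.155 under quantile normalization), and the counts were 3 and 2 without control A and 4 and 2 without control C. The phosphatase DUSP6 (0.33), the inhibitor SPRY2 (-0.06) and MYC (0.07) did not pass.

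Members of the EGF receptor family were called near the shares of all genes. Of 13 members tested 2 (15.4%) rose and 2 (15.4%) fell. The median of -0.09 had no stable sign and became 0.08 without control A, 0.07 under quantile normalization, 0.13 in replicates B and C alone and 0.45 with the stricter filter. The ligands AREG and TGFA rose by 0.93 ± 0.26 and 0.76 ± 0.22, and the receptor ERBB3 and the receptor regulator LRIG3 changed by -0.69 ± 0.17 and -0.75 ± 0.17. AREG had 13.56, 13.58 and 13.28 against 12.54 and 12.55. ERBB3 lay near the testing level, with 3.59, 3.55 and 3.91 against 4.34 and 4.41. All 4 calls were lost without control A (adjusted p = 0.0691 to 0.148) or without control C (0.0928 to 0.131). EGFR itself had a difference of -0.27 and ERBB2 of -0.17, and neither passed.

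FOXO targets fell in most cases. Of 25 members tested 14 (56%) fell and 1 (4%) rose, with a median of -0.72, beside 9.36% lower among all genes. FBXO32 (ENSG00000156804), a ubiquitin ligase subunit of atrophying muscle, had 8.76, 9.28 and 9.97 against 11.55 and 11.24 and fell 4.16-fold (-2.06 ± 0.30, adjusted p = 0.00228). FOXO1 itself changed by -1.51 ± 0.21, the cyclin-like CCNG2 by -0.82 ± 0.13 and KLHL24 by -1.57 ± 0.22. The PI3K inhibitor PIK3IP1 changed by -1.82. PDK4, which restrains glucose oxidation, reached the testing level only through the controls, with 2.01, 2.88 and 3.53 against 5.41 and 4.82, and 13 of the other 24 members fell. The member that rose was the mitophagy receptor BNIP3 (0.43), also a hypoxia target, without a call once either control, BRCA2 siRNA A or BRCA2 siRNA B was left out. The count of falls was 7 without control A and 8 without either control C or BRCA2 siRNA A, with FBXO32, FOXO1, CCNG2 and KLHL24 among those that passed each time.

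The ATF4 list, which covers the amino acid response and the tRNA synthetases, rose in 17 of 36 members (47.2%) and fell in none, with a median of 0.69. ATF4, the factor itself, had 14.58, 14.52 and 14.37 against 13.59 and 13.55 and rose 1.89-fold (0.92 ± 0.15, adjusted p = 0.00274). The synthetases VARS1 and TARS1 rose by 0.64 and 0.84, PHGDH, the first enzyme of serine synthesis, by 1.49 and the folate enzyme MTHFD2 by 1.10. The stress factors DDIT3 (-0.04) and ATF3 (-0.75) did not pass. The list median was 0.96, 0.72 and 0.45 in BRCA2 siRNA A, B and C, so library A stood at more than library C. The count fell to 1 without control A, 5 without control C, 7 without BRCA2 siRNA A and 11 without BRCA2 siRNA B, and ATF4 passed each time.

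The promoters of 2 members that rose, CHAC1 and ASNS, are shown because both hold the letters TGATGNAA of an ATF4 response element. They are the 250 bases before the first listed start in RefSeq (GRCh38.p14), 5′ to 3′ along the gene, with the match in capitals. They lie at chr15:40953221-40953470, plus strand, and chr7:97872409-97872658, minus strand. The CHAC1 match is on the opposite strand, 209 bases before the start, and the ASNS match begins 68 bases before it.
CHAC1 promoter: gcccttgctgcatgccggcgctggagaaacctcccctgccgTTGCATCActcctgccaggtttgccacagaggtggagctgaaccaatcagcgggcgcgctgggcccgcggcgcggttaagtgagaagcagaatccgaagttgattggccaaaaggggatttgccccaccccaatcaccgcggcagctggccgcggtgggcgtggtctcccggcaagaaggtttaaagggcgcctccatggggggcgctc
ASNS promoter: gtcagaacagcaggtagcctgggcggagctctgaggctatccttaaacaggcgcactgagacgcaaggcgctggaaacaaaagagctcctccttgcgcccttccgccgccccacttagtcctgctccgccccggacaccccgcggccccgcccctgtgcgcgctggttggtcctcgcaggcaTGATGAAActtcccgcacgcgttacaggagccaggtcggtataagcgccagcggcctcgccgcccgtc
Among 28 tested members of the ATF4 list with a promoter in the table, 5 (17.9%) hold these letters on either strand, against 3.2% of 27305 promoters. BCAT1, which is not in the list, holds them as well. A match of letters is a description and no sign of binding.

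Among mitosis genes the letters TTTGAA, the core of the cell cycle homology region, occur in 19 of 33 promoters (57.6%) and in 13.6% of all promoters. The CDC20 promoter (chr1:43358731-43358980, plus strand) is shown because this gene had the largest rise of the list and holds the letters at 2 places, 178 bases (opposite strand) and 65 bases before the start. The start sites differ in position from the authors' build, hg19, and the sequences come from the later build only.
CDC20 promoter: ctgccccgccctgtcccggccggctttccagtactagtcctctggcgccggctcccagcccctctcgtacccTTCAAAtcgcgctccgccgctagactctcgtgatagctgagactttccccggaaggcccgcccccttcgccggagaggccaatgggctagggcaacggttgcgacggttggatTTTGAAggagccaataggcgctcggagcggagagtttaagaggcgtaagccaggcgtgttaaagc

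Genes of protein folding in the ER rose in part. Of 26 ER chaperones and unfolded protein response genes 14 (53.8%) rose and none fell, with a median of 0.44. The disulfide isomerase PDIA4 rose by 0.66 ± 0.10 (adjusted p = 0.00225), with its 3 BRCA2 siRNA libraries (13.58 to 13.73) above both controls (at most 13.02). The chaperone CALR rose by 0.60, the isomerase P4HB by 0.45 and the oxidase ERO1A by 0.47, and the chaperone HSPA5 (0.51) did not pass. The count was 1 without control A, 2 without control C, 5 without BRCA2 siRNA A and 8 without BRCA2 siRNA B, and PDIA4 passed each time. CALR, P4HB and ERO1A did not pass without control A (adjusted p = 0.0536, 0.071 and 0.0803).

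Of 35 ribosome biogenesis genes 18 (51.4%) rose and none fell, with a median of 0.31. The nucleolar protein NOP16 rose by 0.59 ± 0.10, NOLC1 by 0.50, the growth-linked LYAR by 0.92 and the snoRNP protein NOP56 by 0.49. NOP16 passed with each library left out, while the count was 1 without control A, 4 without BRCA2 siRNA A or B, 6 without control C and 11 under quantile normalization. The ribosomal proteins did not follow. Of 43 members 0 rose and 1 (2.33%) fell (RPS27, -0.30 ± 0.10, adjusted p = 0.0473), with a median of -0.16. Their fall count was 13 under quantile normalization and 0 without control A, control C, BRCA2 siRNA A or BRCA2 siRNA B. None of the 13 mitochondrially encoded mRNAs passed (median -0.15, limma), with MT-CYB at -0.46 and MT-ND6 at -0.61. Under quantile normalization 3 fell (median -0.26), among them MT-CYB at -0.61 and MT-ND6 at -0.72.

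Some glycolysis enzymes rose and the main glucose transporter fell. Of 30 genes of glycolysis and hypoxia response 13 (43.3%) rose and 3 (10%) fell, with a median of 0.33. Phosphofructokinase PFKP rose by 0.66 ± 0.10, ENO1 by 0.53 and GAPDH by 0.52. The transporter SLC2A1 had 12.04, 12.35 and 12.68 against 13.21 in both controls and changed by -0.86 ± 0.15 (adjusted p = 0.00395). The vascular growth factor VEGFA (0.84) and carbonic anhydrase CA9 (0.10) did not pass. The count of rises was 1 without control A, 3 without control C, 7 without BRCA2 siRNA A, 6 without BRCA2 siRNA B and 7 under quantile normalization. PFKP and SLC2A1 passed each time, and ENO1 and GAPDH did not without control A (adjusted p = 0.0824 and 0.0894). Of 25 sterol synthesis genes 4 (16%) rose and none fell, with a median of 0.37, among them FDPS (0.66) and ACAT2 (0.76). The count was 0 without control A, 1 without control C, BRCA2 siRNA A or BRCA2 siRNA B, and 2 under quantile normalization. The share is near the 11.2% of all genes, while 11 rose with a replicate block.

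**Figure D2:**
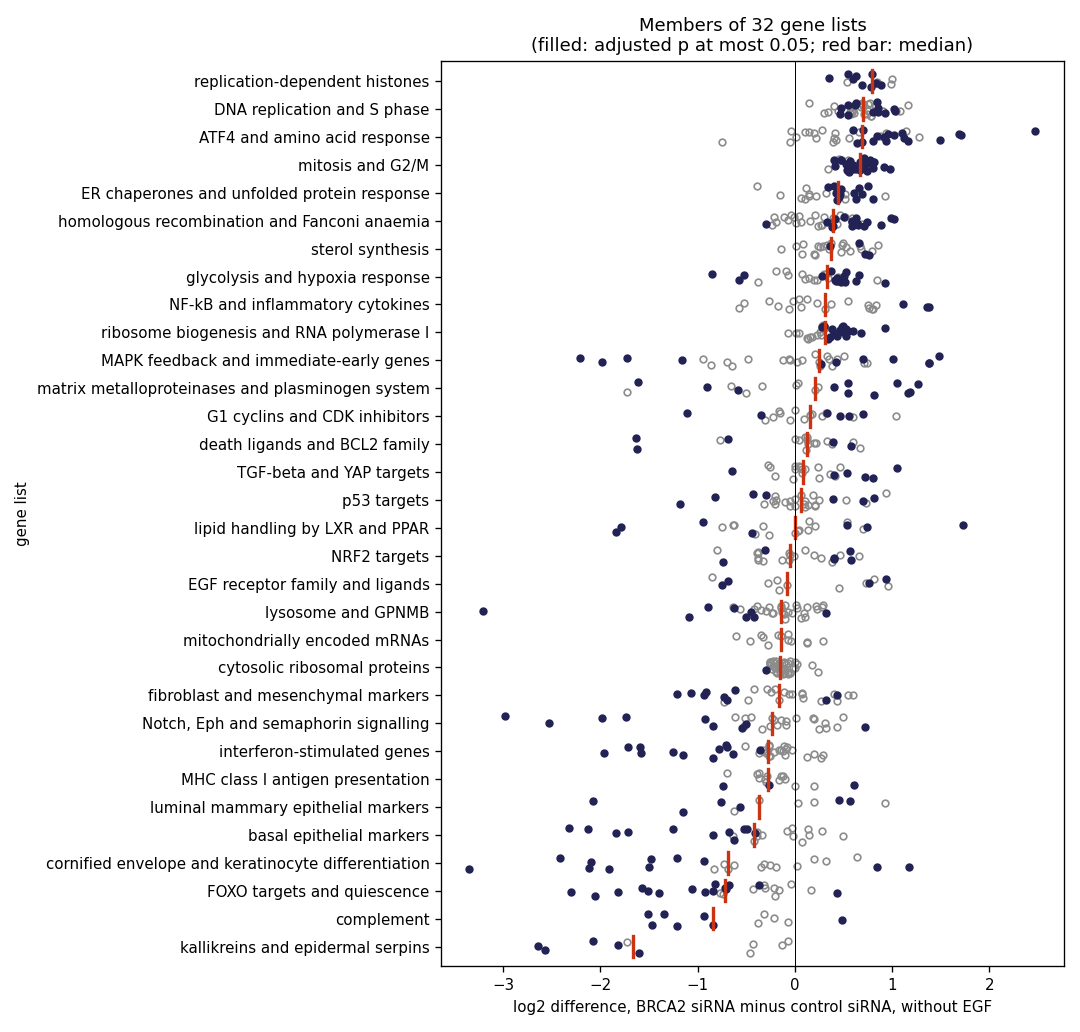
Log2 difference without EGF (horizontal axis) of each tested member of the gene lists (vertical axis), with filled points for an adjusted p of at most 0.05 and a red bar at the list median. The mitosis list lies wholly right of 0 (median 0.66), and the 10 tested kallikreins and epidermal serpins wholly left of it (median -1.66, or -0.43 with no filter).

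Genes of squamous differentiation were among the largest falls. Of 23 cornified envelope and keratinocyte genes tested 9 (39.1%) fell and 2 (8.7%) rose, with a median of -0.68. The median over all 36 in the table, with no filter, was -0.335, and the stricter filter left 4 falls. DSG1 (ENSG00000134760), the desmosomal cadherin of suprabasal layers, had 3.30, 3.82 and 5.31 against 7.40 and 7.57 and fell 10.2-fold (-3.35 ± 0.47, adjusted p = 0.00212). The differentiation factor GRHL3 changed by -2.10 ± 0.27, MAF by -1.50 ± 0.21 and the crosslinking enzyme TGM1 by -1.91. The envelope precursors IVL and LCE3D rose by 1.17 and 0.85, and both calls were lost without control A, control C, BRCA2 siRNA A or BRCA2 siRNA B. DSG1, GRHL3 and MAF passed with each library left out. The keratin KRT4 reached the testing level only in the 2 controls without EGF (4.25 and 4.56), beside 2.11, 2.11 and 2.66 under BRCA2 siRNA. SPRR2A also reached it only through the group where it is high. Of the other 21 members 8 fell. The list counts 13 members below the level needed for testing, such as KRT1 and KRT13.

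Some proteases and inhibitors of the epidermis fell. Of 10 kallikreins and epidermal serpins tested 5 (50%) fell and none rose, with a median of -1.66, which was -0.43 over all 17 in the table with no filter. KLK7, which cuts desmosomes in shedding skin, had 2.41, 2.61 and 4.15 against 5.46 and 5.79, and KLK10 had 1.83, 2.29 and 2.69 against 3.91 and 3.83. Both reached the testing level only through the controls, and 3 of the other 8 members fell (median -1.09). The inhibitor SLPI changed by -2.08 ± 0.39 (adjusted p = 0.00564, and 0.0567 without control A). SERPINB13 had 5.13, 5.87 and 6.94 against 8.45 and 8.80. The list median was -2.18, -1.66 and -1.09 in BRCA2 siRNA A, B and C. The count was 3 without control A or with the stricter filter.

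Basal epithelial markers fell in 11 of 24 cases (45.8%) and rose in none, with a median of -0.42. KRT15 (ENSG00000171346), a keratin of basal progenitors, had 9.98, 10.43 and 10.95 against 12.64 and 12.53 and fell 4.38-fold (-2.13 ± 0.21, adjusted p = 0.00098). The wound keratin KRT16 changed by -1.84 ± 0.24 and the desmosomal cadherin DSC3 by -1.26 ± 0.20. The lineage factor TP63 (-0.03) and the integrins ITGA6 (0.14) and ITGB4 (-0.02) did not pass. The main basal keratin KRT14 changed by -0.41, and its partner KRT5 had a difference of -0.42 that did not pass. The count was 6 without control A and 5 without control C, with KRT15, KRT16, DSC3 and TRIM29 passing each time. Reads of the KRT6 and KRT16 families may be shared with near-identical copies. Of 11 luminal markers tested 4 (36.4%) fell and 2 (18.2%) rose, with KRT8 at -0.76 ± 0.10 and MUC1 at -1.15 (adjusted p = 0.0684 without control A) against KRT7 at 0.57 and KRT18 at 0.45. No luminal rise was called without control A or control C, and 1 fall was called without control A and 2 with the stricter filter.

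The marker lists describe what the libraries hold. KRT5, KRT14 and TP63 were high in all 11 libraries (KRT5 at 17.21 to 18.78), and the luminal markers KRT19, EPCAM, PGR and ELF5 were below the level needed for testing in all. The sum of the 8 basal markers stood at 19.66 and 19.84 in the controls and at 19.30 to 19.52 in the BRCA2 siRNA libraries (log2 of the summed linear values). That of the 8 fibroblast markers stood at 13.42 and 13.53 against 12.40, 12.79 and 13.12, with COL1A1, COL3A1, DCN and PDGFRA lower and COL1A2, a defining collagen of fibroblasts, below the testing level (1.31 to 1.84). FAP and PDGFRB did not pass, nor did LUM, which had 7.67, 8.16 and 8.33 against 7.68 and 7.56. In the fuller fibroblast list 7 of 27 members (25.9%) fell and 2 (7.41%) rose, with COL3A1 at -0.91 and COL6A1 at -0.73 and with CDH2 at 0.43 and VIM at 0.32, and 1 fell without control A, 2 without control C and 4 without BRCA2 siRNA A. PTPRC, CD3E and ITGAM of leukocytes and VWF and CDH5 of endothelium were below the testing level. Of the 3 leukocyte and endothelial markers tested 2 (66.7%) fell, beside 9.36% of all genes. These were the receptor KDR (-1.90 ± 0.36, adjusted p = 0.0535 without control C) and CD14 (-1.04, without a call once any of the 5 libraries was left out). The part of the fibroblast and basal markers in the other results was not tested. In bulk RNA, fewer cells of a type and less RNA per cell cannot be told apart.

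Interferon-stimulated genes fell in 12 of 34 tested members (35.3%) and rose in none, with a median of -0.28. IFI44L (ENSG00000137959) had 6.42, 7.11 and 7.03 against 8.40 and 8.50 and fell 3.02-fold (-1.59 ± 0.20, adjusted p = 0.00151). The GTPase GBP2 changed by -1.72 ± 0.28 and SAMD9L by -0.70 ± 0.11. The antiviral enzyme RSAD2 reached the testing level only in the 2 controls without EGF (4.01 and 4.04, beside 1.65 to 2.60), and 11 of the other 33 members fell. ISG15 (-0.10) and MX1 (-0.27) did not pass. The count was 4 without control A and 7 without BRCA2 siRNA A, with IFI44L, GBP2 and SAMD9L passing each time.

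The IFI44L promoter is shown because it holds the letters GAAANNGAA of an interferon-stimulated response element at 2 places, 164 and 73 bases before the start (chr1:78620198-78620447, plus strand, GRCh38.p14). Of 27 tested members that have a listed promoter, 14 (51.9%) hold the letters, and 7.1% of all promoters do.
IFI44L promoter: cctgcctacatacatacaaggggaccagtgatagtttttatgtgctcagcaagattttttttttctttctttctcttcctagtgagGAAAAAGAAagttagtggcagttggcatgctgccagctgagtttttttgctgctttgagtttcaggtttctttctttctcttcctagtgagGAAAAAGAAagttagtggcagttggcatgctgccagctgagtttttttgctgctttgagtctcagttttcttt

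Complement genes fell in 6 of 11 tested members (54.5%) and 1 (9.09%) rose, with a median of -0.84. The median was -0.50 without control A, -0.38 with the stricter filter, -0.35 in replicates B and C alone and -0.27 over all 18 in the table with no filter. C3 (ENSG00000125730), the central component, had 12.97, 13.28 and 13.80 against 14.90 and 14.82 and changed by -1.51 ± 0.20 (adjusted p = 0.00168). Clusterin, CLU, changed by -1.47 ± 0.17, and the proteases C1R and C1S by -1.35 and -1.21. C4A and C4B are near-identical copies, so their falls (-0.84 and -0.94) may share reads. The protective membrane protein CD59 rose by 0.48, and not without control A, control C, BRCA2 siRNA A or BRCA2 siRNA B. The count of falls was 2 without control A, and C1R and C1S did not pass without control A (adjusted p = 0.0986 and 0.0857) or control C (0.0548 and 0.0522).

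Of 21 tested cytokines and other genes under NF-kB 3 rose and none fell. This share, 14.3%, is near the 11.2% of all genes, and the median was 0.31 (0.18 with no filter and 0.19 without BRCA2 siRNA C). Without control A 1 rose. The granulocyte factor CSF3 had 10.16, 10.37 and 10.43 against 9.21 and 9.20 and rose by 1.11 ± 0.17 (adjusted p = 0.00239). IL33 rose by 1.38 (adjusted p = 0.0701 without control A and 0.0665 without control C) and CSF2 by 1.36 (0.136 without control A). In this list library C of the BRCA2 siRNA group stood highest, with medians of 0.10, 0.30 and 0.45 in A, B and C. IL6 (0.80), CXCL8 (0.75) and IL1B (0.79) did not pass. Of 16 genes of MHC class I presentation 2 (12.5%) fell and 1 (6.25%) rose, near the shares of all genes, with a median of -0.28. HLA-F changed by -0.74 and B2M (-0.29) did not pass, and HLA genes share reads. No fall of this list was called without control A, control C or BRCA2 siRNA A, and 4 were under quantile normalization.

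Some receptors of the Notch and Eph families fell. Of 29 members 8 (27.6%) fell and 1 (3.45%) rose, with a median of -0.24. EPHB3 changed by -2.53 ± 0.31, with 5.34, 5.17 and 6.28 against 7.95 and 8.30. NOTCH3 changed by -1.74 ± 0.22 and NOTCH1 by -0.84 ± 0.13, and the Notch target HES1 by -0.50. The neuropilin NRP2 rose by 0.72 (not without control A). NOTCH2 (-0.14) and the ligand JAG1 (0.25) did not pass. The count of falls was 5 without control A and 4 without control C, with EPHB3, EPHB6, NOTCH3 and NOTCH1 passing each time.

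Genes of matrix remodelling went both ways. Of 19 matrix metalloproteinase and plasminogen genes tested 8 (42.1%) rose and 3 (15.8%) fell, with a median of 0.20 (0.07 with no filter and 0.32 with the stricter one). The protease inhibitor SERPINE2 rose by 0.81 ± 0.10, the metalloprotease ADAM19 by 1.27 ± 0.16 and the collagenase MMP1 by 1.18. TIMP3, a matrix-bound inhibitor of metalloproteases, had 10.28, 10.79 and 11.41 against 12.42 and 12.45 and changed by -1.61 ± 0.28, and TIMP2 changed by -0.90 (adjusted p = 0.0756 without control A). The count of rises was 2 without control A or control C, 5 without BRCA2 siRNA A and 4 without BRCA2 siRNA B. Of 22 targets of TGF-beta or YAP, 5 (22.7%) rose and 1 (4.55%) fell, with TGFB1 at 0.53, F3, the tissue factor, at 0.80 and THBS1 at 0.72, and the YAP targets CCN1 (0.24) and CCN2 (0.10) not past the threshold. The count was 0 without control A and 1 without control C.

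Among 35 lysosome genes 7 (20%) fell and 1 (2.86%) rose, with a median of -0.14 (-0.25 under quantile normalization and -0.08 without BRCA2 siRNA A). The aspartic protease CTSD had 10.06, 10.20 and 10.35 against 11.04 and 11.16 and changed by -0.90 ± 0.11 (adjusted p = 0.00147). CTSF changed by -1.09 and the ceramidase ASAH1 by -0.43, both without a call once control A (adjusted p = 0.0627 and 0.0803) or control C (0.0547 and 0.0612) was left out. The membrane protein LAMP1 (0.10) and the regulators TFEB (-0.56) and MITF (0.21) did not pass. The count of falls was 2 without control A or control C and 4 without BRCA2 siRNA A, with GPNMB and CTSD passing each time.

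The GPNMB promoter (chr7:23246525-23246774, plus strand, GRCh38.p14) is shown because this gene fell most in its list and holds the letters TCANNTGA of the MiT/TFE E-box, 63 bases before the start. The letters are in 8 of 23 lysosome promoters (34.8%) and 6.4% of all. The forkhead letters GTAAACA are in 2 of 24 promoters of FOXO targets (8.3%) and 3.0% of all, and in none of the 14 of these 24 genes that were called.
GPNMB promoter: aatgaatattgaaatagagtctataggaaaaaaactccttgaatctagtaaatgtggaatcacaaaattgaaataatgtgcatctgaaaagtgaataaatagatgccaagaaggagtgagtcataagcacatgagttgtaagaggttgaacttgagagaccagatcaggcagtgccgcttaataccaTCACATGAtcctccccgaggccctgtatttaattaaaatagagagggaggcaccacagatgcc

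Of 21 tested lipid-handling genes 3 (14.3%) rose and 4 (19%) fell. The lipid carrier APOE had 8.78, 9.28 and 10.17 against 11.26 and 11.23 and changed by -1.84 ± 0.31, and the fatty acid transporter CD36 by -1.79 ± 0.30. The nuclear receptor PPARG rose by 0.54 (adjusted p = 0.101 without control A, 0.131 without control C, 0.0736 without BRCA2 siRNA A and 0.0598 without BRCA2 siRNA B). Counts of rises and falls were 1 and 2 without each of these 4 libraries. Of 24 NRF2 targets 4 (16.7%) rose and 2 (8.33%) fell, near the shares of all genes, with a median of -0.05 (-0.19 under quantile normalization), thioredoxin TXN at 0.57 and the marker target NQO1 (0.19) not past the threshold. None of the 4 rises remained without control A, and 2 passed without control C, BRCA2 siRNA A or BRCA2 siRNA B. Of 19 death ligand and BCL2 family genes 2 (10.5%) rose and 3 (15.8%) fell. The FOXO-linked death gene BMF changed by -1.63 ± 0.24, the ligand TNFSF10 by -1.63 ± 0.40 (adjusted p = 0.11 without control A and 0.0934 without control C), and the survival gene BCL2L1 rose by 0.57 (0.0834 to 0.164 without either control, BRCA2 siRNA A or BRCA2 siRNA B).

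**Figure D3:**
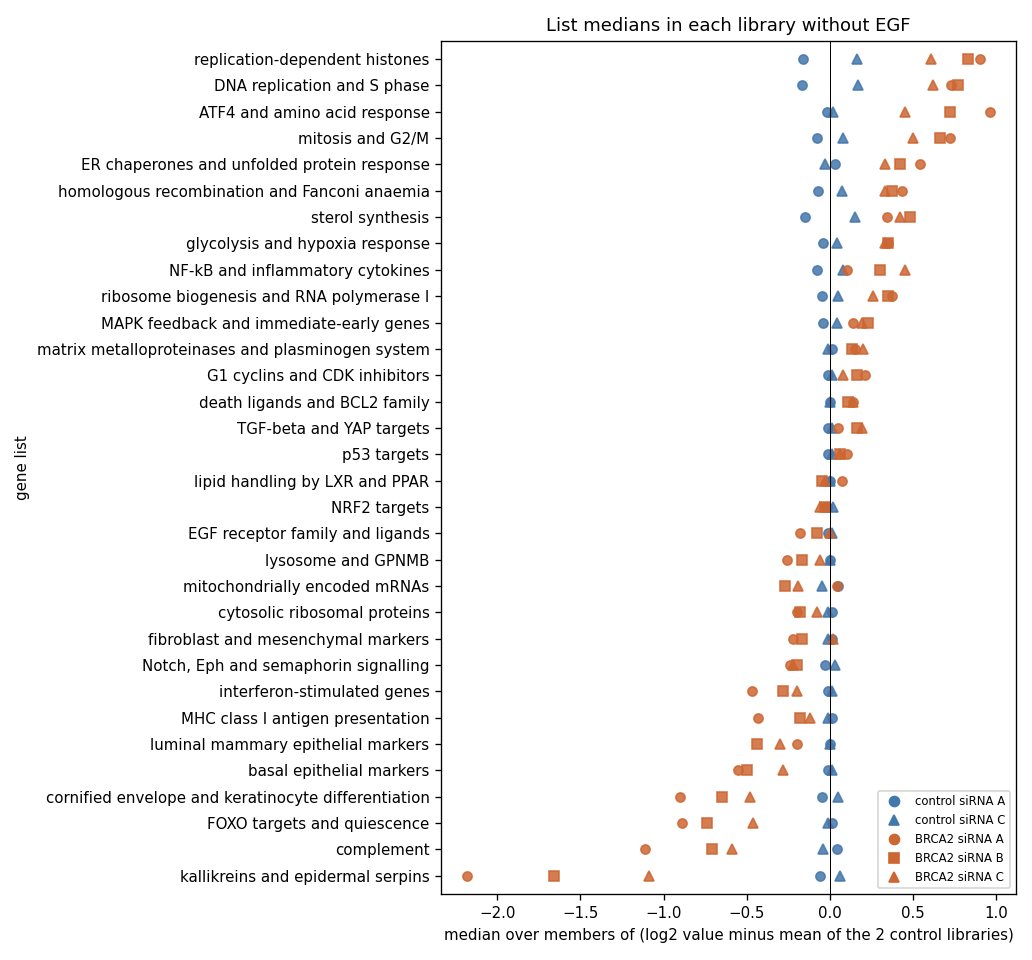
Median over the tested members of each gene list (vertical axis) of the log2 value minus the mean of the 2 control libraries (horizontal axis), with 1 symbol per library without EGF. In the ATF4 list BRCA2 siRNA A, B and C lie at 0.96, 0.72 and 0.45, and in the FOXO list at -0.89, -0.74 and -0.46.

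The same siRNA contrast was almost empty in the medium with EGF. There limma called 1 of 17950 genes (0.00557%), the mitochondrial pseudogene MTATP8P1 (-1.39, adjusted p = 0.0252), whose reads may belong to mitochondrial mRNA, and 508 had an unadjusted p under 0.05. For the 3688 genes called without EGF the median absolute difference was 0.60 without EGF and 0.08 with it. These genes were chosen for their difference without EGF, which by itself favours the larger value there. The difference between both effects, tested as an interaction over all 11 libraries, passed for 595 genes (3.31%), 248 with the effect without EGF the higher and 347 with it the lower. Of these, 591 were among the 3688. The count was 0 without control A, control C, control with EGF A or BRCA2 siRNA with EGF C, 1 without BRCA2 siRNA B, 62 without BRCA2 siRNA A and 157 without BRCA2 siRNA with EGF A. It was 1041 without BRCA2 siRNA C and 1607 without control with EGF C. With all libraries 3982 genes had an unadjusted p under 0.05. The interaction passed for 13 of 38 mitosis genes, 7 of 31 MAPK genes, 7 of 25 FOXO targets, 7 of 24 basal markers, 7 of 23 cornified envelope genes, 2 of 40 replication genes and 2 of 36 ATF4 genes, and for none of the recombination genes or histones. The cornified envelope count includes KRT4, which was tested only through the controls without EGF. SPRR2A in that list and PDK4 among the FOXO targets were also tested only through the group where they are high. List medians with EGF lay between -0.59 (mitochondrially encoded mRNAs) and 0.26 (histones).

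**Figure D4:**
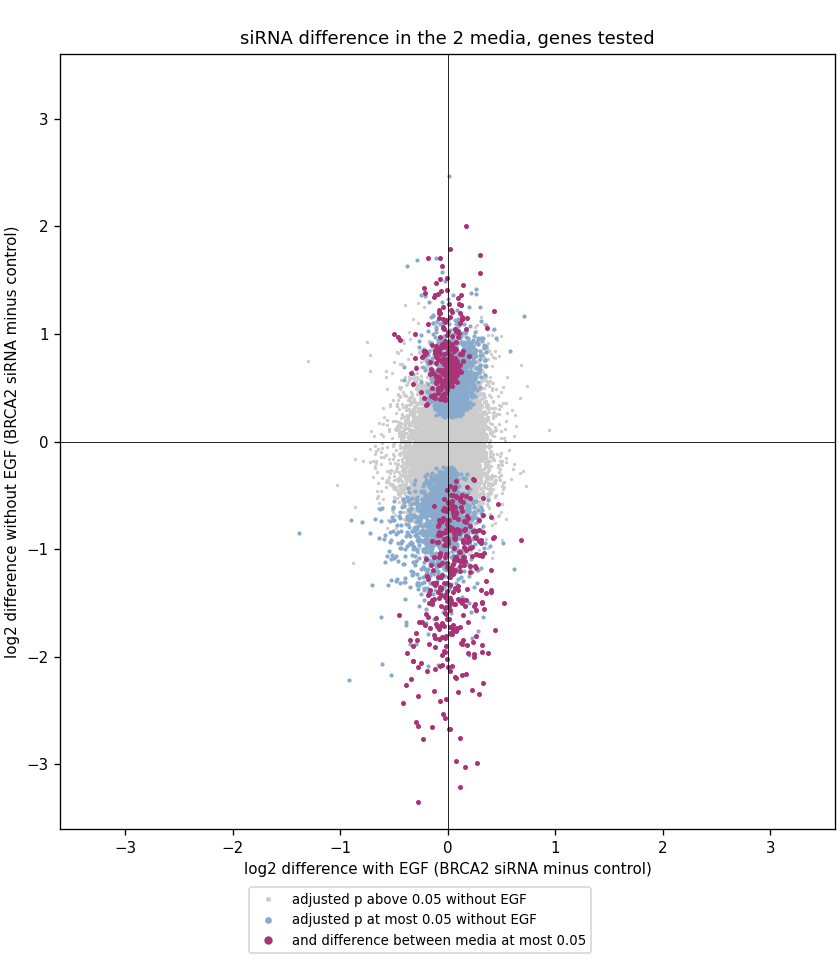
Log2 difference between BRCA2 siRNA and control siRNA with EGF (horizontal axis) and without EGF (vertical axis), 1 point per gene tested. The 3688 genes called without EGF spread along the vertical axis (median absolute difference 0.60) and little along the horizontal one (0.08). They were chosen for their difference on the vertical axis.

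The sodium channel subunit SCNN1G had the smallest p of the interaction. Without EGF it had 4.52, 4.78 and 4.69 against 6.85 and 7.11, and with EGF 5.06, 5.39 and 5.22 against 5.27, 5.28 and 5.51. The groups were apart in the first medium and overlapped in the second. The difference between both effects was -2.19 (adjusted p = 0.0137). It was 1.89 for MARCHF4, -2.34 for the epithelial actin-binding protein POF1B, 1.19 for smoothelin, SMTN, -2.16 for LINC02518, 1.59 for SPRY4, -1.89 for periplakin, PPL, a cornified envelope protein, and -1.65 for the acetate enzyme ACSS1 (adjusted p = 0.0167 for each of these 7). LINC02518 and ACSS1 reached the testing level only in the 2 controls without EGF (3.92 and 4.04, and 3.57 and 3.70), so both had to differ.

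Values with EGF put the levels of the main genes in order. GPNMB had 5.95, 5.86 and 6.34 under control siRNA with EGF and 5.83, 6.36 and 6.31 under BRCA2 siRNA with EGF. The 3 BRCA2 siRNA libraries without EGF (7.62 to 9.20) lay above these 6 and below the 2 controls without EGF. SPRY4 had 10.84, 10.54 and 10.39 and 10.54, 10.68 and 10.21 with EGF. Its lowest value with EGF lay within the range of the BRCA2 siRNA libraries without EGF (10.08 to 10.28), and both controls without EGF lay below all others. KRT15 had 10.25, 10.31 and 10.50 under control siRNA with EGF, within the range of 9.98 to 10.95 under BRCA2 siRNA without EGF. CHAC1 had 10.75, 10.89 and 9.42 with EGF under control siRNA, of which the last lay within the spread of BRCA2 siRNA without EGF (8.31 to 9.45). These comparisons share no test, and the levels are given as a description.

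**Figure D5:**
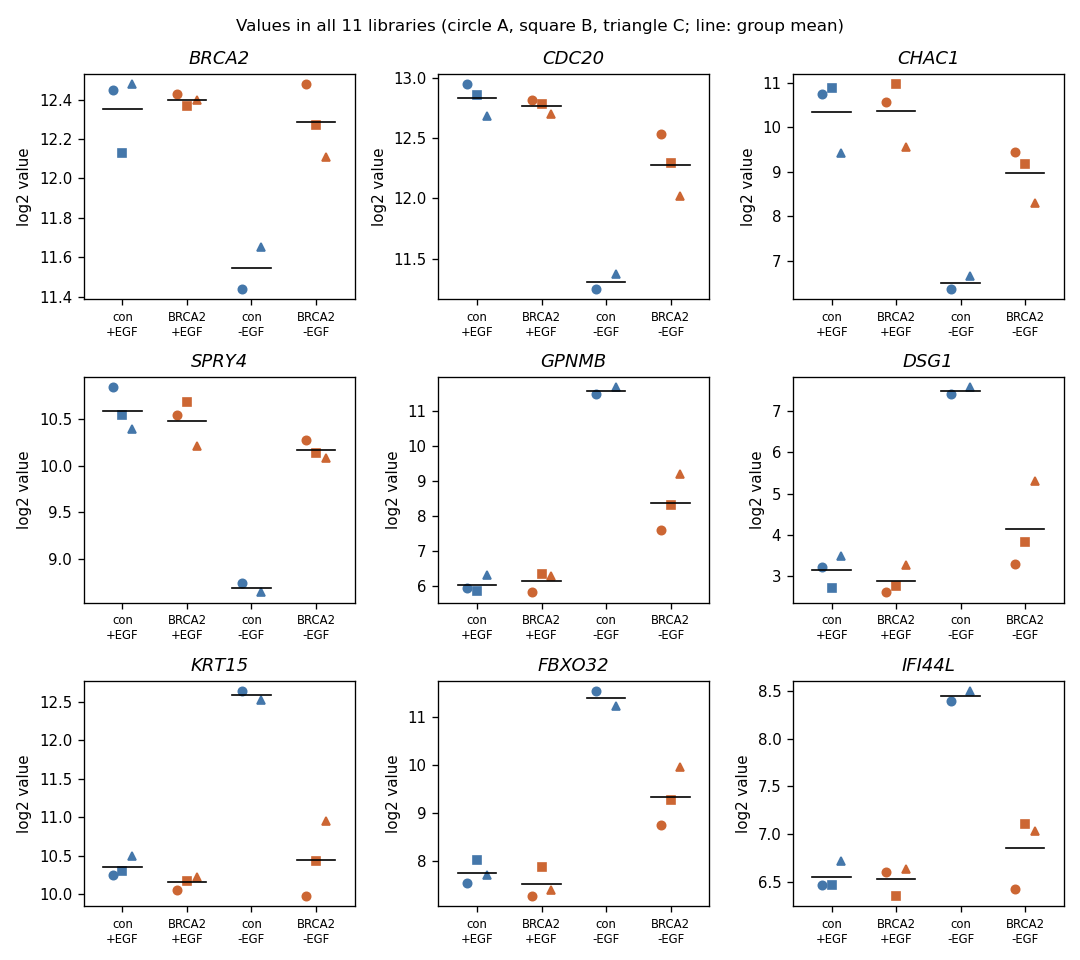
Deposited log2 value (vertical axis) of 9 genes in all 11 libraries by group (horizontal axis), with circles, squares and triangles for replicates A, B and C and a line at the group mean. For GPNMB the 2 controls without EGF (11.49 and 11.68) lie above all other libraries, and the 3 BRCA2 siRNA libraries without EGF (7.62 to 9.20) lie between them and the 6 libraries with EGF.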

How the data were processed

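Total RNA had been depleted of ribosomal RNA with RiboZero and made into libraries with Script-seq v2, per the labels' protocols. The authors deposited 1 table of log2 values, 40460 Ensembl genes by 11 libraries, from -2.94 to 20.62. The submitters' processing notes name hg19, TopHat2 2.0.11, DESeq2 and limma, without role or order; the sources used here do not give the counter, annotation and transform. The table holds no counts, so depth is unknown and no interval that needs it is given. In every gene the mean of the 4 replicate A libraries equalled that of the 7 replicate B and C libraries (largest difference 7.2e-09), so values had been centred without regard to group. Differences within a replicate are unaffected, differences that mix replicates are not. The control group lacking EGF has no replicate B. All 11 columns were used and 0 were left out.

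From these values a linear model with 4 group means was fitted in limma 3.58.1 (R 4.3.3), with moderated variances and a mean-variance trend. It had 7 residual degrees of freedom. Tests were two-sided, with Benjamini-Hochberg adjustment over 17950 genes and a threshold of 0.05. The code was tested on simulated data. The labels call the samples biological replicates but do not say how they were grown. The p-values thus measure the spread between these samples in the centred values. The centring had removed the mean difference between replicate A and the others, and the main fit makes no allowance for that. With a term for replicate A, 3161 genes were called without EGF. Symbols matched 30273 identifiers (74.8%) through a gene name table, RefSeq and GENCODE. The lists hold 901 genes, 858 of them in the table.

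Named genes are BRCA2, the 12 largest rises and 12 largest falls (past the threshold, above the median level, no overlap of libraries), up to 4 members per list with the smallest p, and the 8 smallest interaction p values. Further members were picked after their values were seen. Some members are not reported here. The members and lists were chosen with earlier results of these data known. List counts are given with their share, to be read against the shares of all genes, with no test of a list. Replicate letters were not taken as pairing the samples in the main fit. Same-letter correlations ranged from -0.366 to 0.700. The centring sets the replicate A libraries against each other, and the deviations of the 2 controls without EGF mirror each other. For A, and for C without EGF, these correlations therefore cannot show whether the letters pair the samples. With EGF the same-letter correlations were 0.695 (B) and 0.700 (C), and those across B and C were -0.642 and -0.746. In that medium libraries of the same letter thus varied together, and the main fit leaves this in the spread. For B across media the values were -0.120 and -0.108.

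Alternatives covered filters, quantile normalization, no trend, a replicate block, a term for replicate A, replicates B and C alone, the 5 libraries alone and each library left out. Plots used matplotlib 3.10.9.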

Additional observations from a re-analysis of the deposited data

Results flagged for a closer look

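The effect of the BRCA2 siRNA label differed between the media in 595 of 17950 genes, by limma's test of the difference of the 2 effects (adjusted p at or under 0.05, 4 group means, 11 libraries). The count lay between 0 and 1607 when single libraries were left out, and no gene passed in replicates B and C alone. All 8 genes with the smallest p of this test are given here, as the log2 difference of the effect without EGF minus the effect with EGF.

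Among those 8 genes, 3 had a higher difference without EGF. MARCHF4, a membrane-bound ubiquitin ligase, differed by 1.89, SPRY4, a feedback inhibitor of receptor tyrosine kinase signalling, by 1.59, and SMTN, a cytoskeletal protein of smooth muscle, by 1.19. The other 5 had a lower one. POF1B, an actin-binding protein of epithelia, differed by -2.34, SCNN1G, a subunit of the epithelial sodium channel, by -2.19, the non-coding LINC02518 by -2.16, PPL, a desmosomal plakin, by -1.89, and ACSS1, a mitochondrial acetyl-CoA synthetase, by -1.65. In LINC02518 and ACSS1 all 3 libraries labelled BRCA2 siRNA without EGF and all 6 with EGF lie below a linear value of 10, the level needed for testing, so both genes were tested only because their controls without EGF reach it.

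Of the 12 largest rises without EGF, 7 also passed the test of the difference between media, and 11 of the 12 largest falls did. These genes were chosen for their change without EGF, which is 1 of the 2 terms of that difference.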

How the results depend on the processing

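The number of genes called without EGF was 3688 (54.4% higher) and ranged from 624 (without control A) to 3597 (without BRCA2 siRNA C) with 1 of the 5 libraries without EGF left out, and from 3220 to 4767 (without control with EGF C) with 1 of the other 6 left out. It was 0 in replicates B and C alone, where 2070 genes had an unadjusted p under 0.05 and the control group is 1 library assumed to vary like the others, and 6778 in a fit of the 5 libraries alone. The share higher was 43.8% with no filter and 64.7% with a stricter one. The difference between media, 595 genes, became 375 without the mean-variance trend and 0 in replicates B and C alone, and ranged from 0 to 1607 with 1 library left out. With EGF the 1 call became 0 with the stricter filter, a term for replicate A, or replicates B and C alone, and was 0 to 1 with 1 library left out. BRCA2, at 0.74, ranged from 0.64 to 0.84 with 1 of the 5 libraries without EGF left out, and was 0.63 under quantile normalization. It lost the call without control A (0.64) and in replicates B and C alone (0.54).

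With a replicate block 4183 genes were called without EGF, 0 with EGF, and 930 between media, and BRCA2 stood at 0.79 (adjusted p = 0.00213). Correlations of same-letter deviations ran from -0.366 to 0.700. They were 0.695 and 0.700 for B and C with EGF but -0.247 and -0.129 for A and C without it. The centring and the mirrored deviations of the 2 controls shape the values for A and for C without EGF. For these libraries the correlations thus cannot show whether the letters pair the samples. For B and C with EGF, libraries of the same letter varied together, with -0.642 and -0.746 across the letters. The block moved the count of rises from 13 to 37 in DNA replication, 9 to 14 in histones and 4 to 11 in sterol synthesis (median 0.58), and that of falls from 2 to 5 in MHC class I presentation. It turned the median of p53 targets to -0.015.

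None of the 151 named genes changed direction under any alternative run (with the stricter filter 138 of them were tested). In the named genes past the threshold the groups did not overlap, so leaving libraries out could not change the direction. Of the 141 past the threshold, 69 passed with each of the 5 libraries left out in turn, and 70 were lost without control A. Precision is limited by the 2 control libraries, and depth is unknown. The 33 list medians changed sign in at most 2 lists under any setting.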
